A study of Mus musculus with 10 samples.

Results

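The 75 genes described here, out of 55426 genes in the RNA-Seq table, encode calcium and TRP channels, channel subunits, and other calcium-handling proteins. They were chosen by symbol alone and comprise the voltage-gated calcium channel subunits (*Cacn* genes), the TRPC, TRPV, and TRPM channels, the store-operated entry genes (*Orai* and *Stim*), the IP3 and ryanodine receptors, the calcium ATPases (*Atp2a*, *Atp2b*, and *Atp2c*), and *Pln*, *Sln*, *Casq1*, *Casq2*, *Slc8a1*, *Pkd2*, *Piezo1*, and *Piezo2*. Of the 75 genes, 41 reached a mean of 0.5 TPM (transcript abundance scaled to transcript length and to the aorta's total) over the 6 aortas and were tested, 34 did not, and 8 of those 34 were listed at 0 in every aorta.

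RNA-Seq covered the whole thoracic aorta, taken from 3 control mice and 3 *Prdm16*SMKO mice. PRDM16 is a transcriptional regulator, and the study asked what its loss from vascular smooth muscle cells (VSMCs) changes. Control mice were *Prdm16*f/f without Cre, and *Prdm16*SMKO mice were *Prdm16*f/f, *SMMHC*-CreERT2, in which a tamoxifen-inducible Cre is driven by the *Myh11* promoter from a transgene on the Y chromosome, all on a C57BL/6J background. By the labels the sequenced controls carry no Cre, so in these 6 aortas Cre and the deletion cannot be told apart, although the study's methods also name Cre-carrying mice among its controls. The age of the sequenced mice, the hour at which the aortas were taken, and whether controls received tamoxifen are not given in the sources used here. ChIP-Seq was performed in vascular fibroblasts, not VSMCs, that carried Flag-tagged PRDM16 or an empty vector by lentivirus (a 48-hour infection, then puromycin at 2 μg/mL over 1 week). Each condition had 1 anti-Flag library, so the peak lists have no replicate check.

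In VSMCs, depolarization opens L-type calcium channels, and receptors coupled to phospholipase C release calcium from the sarcoplasmic reticulum through IP3 receptors. The incoming calcium binds calmodulin, which activates myosin light chain kinase and so contraction. SERCA pumps refill the store, STIM and ORAI proteins admit calcium when the store is empty, and plasma membrane pumps and the sodium-calcium exchanger expel it. TRP and PIEZO channels add cation entry in response to receptors, stretch, and shear.

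Sequence under the promoter peaks is shown for 4 of these genes. The windows come from the promoter peaks of the highest-enriched pore gene, the 2 most abundant members, and the member with the smallest *P* value, in GRCm38, each 121 bases long, free of annotated exons, and read 5′ to 3′ on the strand of the gene. Capitals mark CpG dinucleotides. The *Cacna1c* window is centered on the peak summit at chr6:119108805-119108925 (minus strand), 370 bp upstream of the nearest transcription start site (TSS) and in an intron of longer transcripts, with 13 CpG. The *Atp2a2* window, chr5:122501447-122501567 (minus strand), contains the summit in an intron and holds 19 CpG. The *Itpr1* window, chr6:108213354-108213474 (plus strand), lies in an intron 88 bp from the summit and holds 7 CpG. The *Piezo1* window, chr8:122551465-122551585 (minus strand), is centered on the summit upstream of all its transcripts and holds 11 CpG.
Cacna1c: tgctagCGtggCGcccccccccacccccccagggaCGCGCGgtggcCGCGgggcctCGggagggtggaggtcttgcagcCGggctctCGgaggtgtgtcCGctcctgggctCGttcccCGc
Atp2a2: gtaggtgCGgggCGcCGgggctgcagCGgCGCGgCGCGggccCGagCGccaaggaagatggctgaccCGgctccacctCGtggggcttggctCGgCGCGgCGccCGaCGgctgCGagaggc
Itpr1: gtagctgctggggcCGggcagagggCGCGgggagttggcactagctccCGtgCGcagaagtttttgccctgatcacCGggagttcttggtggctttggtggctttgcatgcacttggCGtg
Piezo1: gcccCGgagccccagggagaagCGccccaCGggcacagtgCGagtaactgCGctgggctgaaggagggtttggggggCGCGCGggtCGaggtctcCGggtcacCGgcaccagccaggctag

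*Prdm16* itself was 56.1, 47.6, and 40.3 TPM in the control aortas and 23.3, 33.3, and 23.4 TPM in the *Prdm16*SMKO aortas, 55.6% of the control mean (log2 fold change −0.85 ± 0.18 SE, limma adjusted *P* = 0.072). The groups did not overlap, and the source of the remaining *Prdm16* transcript was not tested. Smooth muscle markers were abundant, as the tissue label states, with sums of 20792–24248 TPM in controls and 13889–17933 TPM in *Prdm16*SMKO over 8 genes. Groups did not overlap for 4 of the 8 that were lower, beside 14.9% of all tested genes, and for 1 that was higher, *Des* (46.1–63.1 TPM in controls and 67.9–73.1 TPM in *Prdm16*SMKO), beside 4.08%, and none of the 8 was called by limma, with 1 higher and 4 lower at an unadjusted *P* under 0.05. Over all 15668 tested genes, 61 were called higher (0.389%) and 107 lower (0.683%) by limma at an adjusted *P* under 0.05. Log2 fold changes were below 0 for 67.9% of all tested genes, with a median of −0.12, and the median was 0.0046 after median-ratio rescaling of the aortas. The part of the smooth muscle markers in the values of the calcium genes was not tested.

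None of the 75 genes was called by limma, which did not call *Prdm16* itself either (limma adjusted *P* = 0.072). On simulated data the fit recovered 51 of 100 genes changed 2-fold, so a missing call does not show an unchanged gene. The study's own list of differentially expressed genes with a PRDM16 promoter peak, from a test it does not name, holds *Stim2* as higher. The lowest adjusted *P* value by limma was 0.12, for *Piezo1*, against 1.07% of all tested genes called. At an unadjusted *P* under 0.05, 4 members were lower (*Piezo1*, *Itpr1*, *Cacna1d*, and *Casq1*) and 0 were higher, 4 of 41, where 12.7% of all tested genes passed (9.45% lower and 3.22% higher). Groups did not overlap for 6 members that were lower (*Cacna1d*, *Cacnb2*, *Piezo1*, *Orai1*, *Itpr1*, and *Casq1*) and for 2 that were higher (*Atp2c1* among them), 8 of 41, beside 19.0% of all tested genes (14.9% lower and 4.08% higher). These counts are near those of the whole table. The members' median log2 fold change was −0.05, with 26 below 0 and 15 above, and 17 of 41 below 0 after rescaling by the median ratio.

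**Figure D1:**
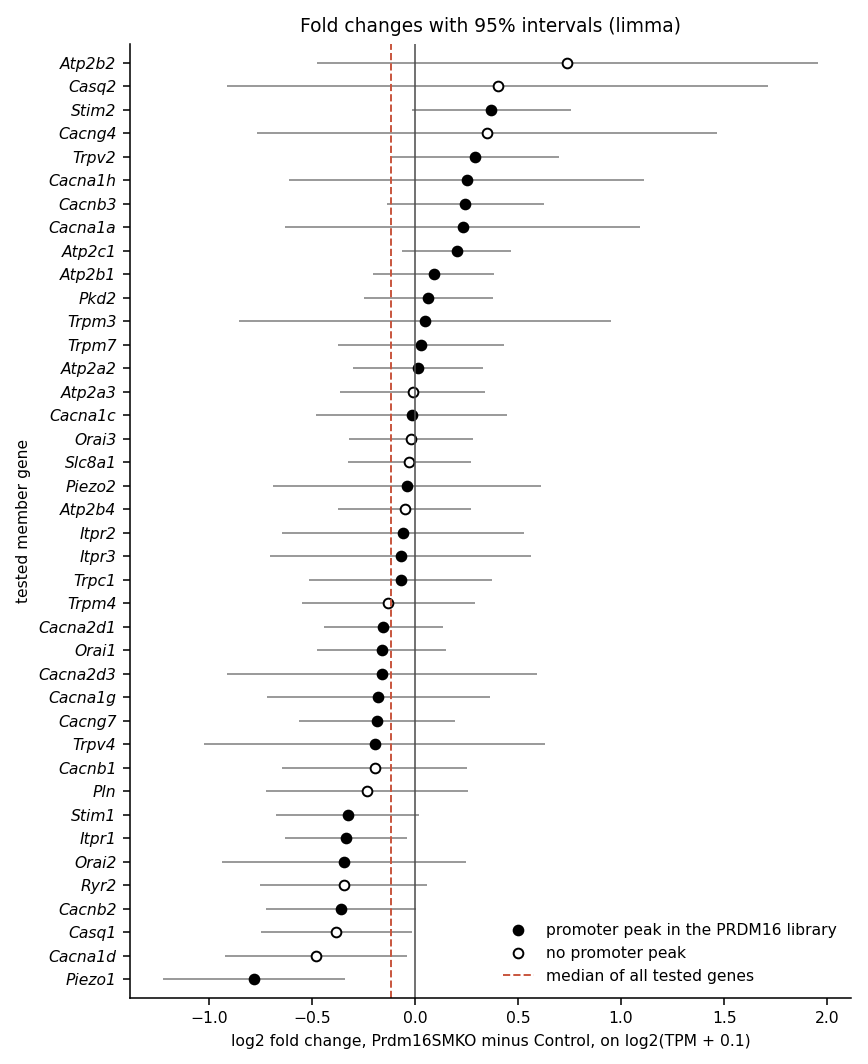
Log2 fold change (x axis, *Prdm16*SMKO minus control, on log2(TPM + 0.1)) of 40 tested calcium genes with 95% intervals from limma, filled where the promoter held a peak in the PRDM16 Flag library. *Piezo1* at −0.78 lies farthest below 0, and the dashed line marks the median of all tested genes at −0.12.

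The 95% interval lay within 2-fold in either direction for 33 of the 41 tested members and within 1.5-fold for 15. The 8 members with an interval reaching beyond 2-fold were *Piezo1* and 7 members of low level (*Cacna1a*, *Cacna1h*, *Cacng4*, *Trpv4*, *Casq2*, and *Atp2b2* among them). The sum over all members was 1183–1423 TPM in controls and 1028–1338 TPM in *Prdm16*SMKO, so the groups overlapped. Among the controls, 31 of 41 members were highest in replicate 1, and among the knockouts 24 of 41 were lowest in replicate 3, the 2 aortas whose median gene also lay farthest above and below the others. In whole aortas, fewer cells of a type and less RNA per cell cannot be told apart.

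**Figure D2:**
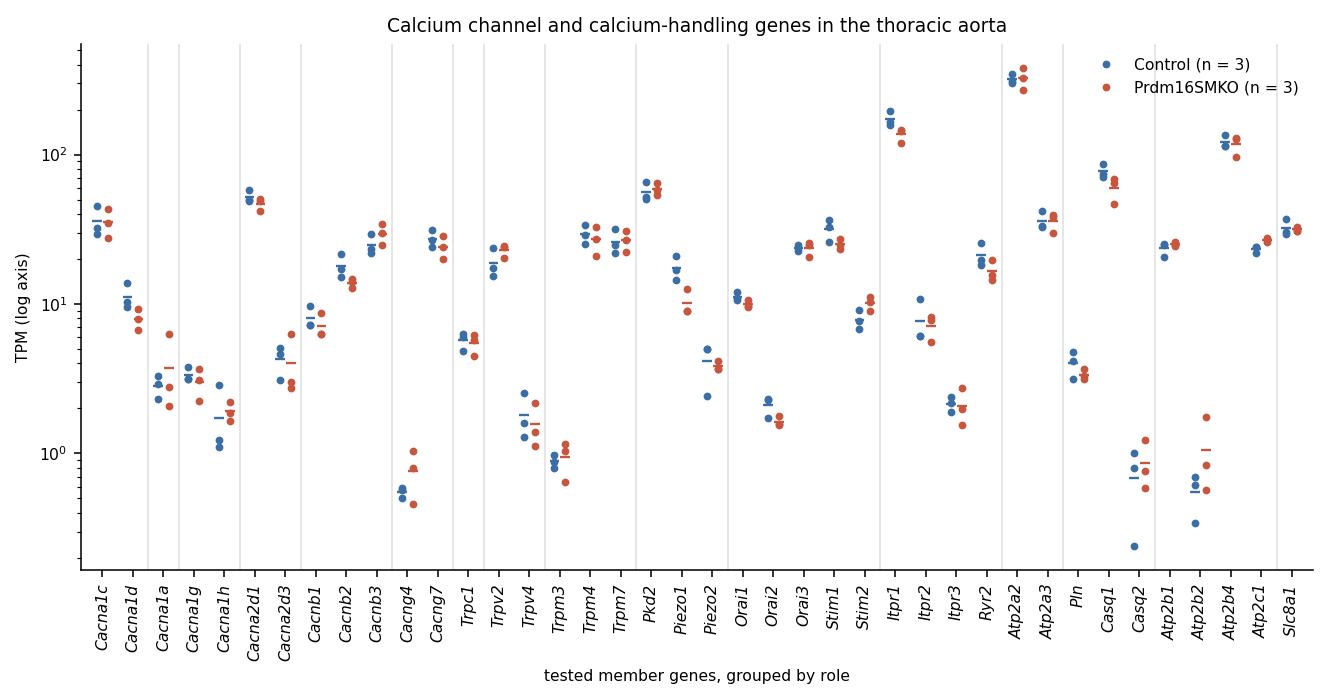
TPM (y axis, log scale) of 40 tested calcium genes in each control (blue) and *Prdm16*SMKO (red) aorta, in order of role, with bars at the group means. *Atp2a2* is highest at about 319 TPM in controls and 325 TPM in *Prdm16*SMKO, and *Cacng4*, at 0.50–0.59 TPM in controls, is among the lowest.

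*Piezo1*, the mechanically gated cation channel that senses stretch and shear, was the member with the strongest difference. It was 17.0, 21.1, and 14.4 TPM in controls and 8.96, 12.6, and 8.96 TPM in *Prdm16*SMKO. Every knockout aorta was below every control, with a log2 fold change of −0.78 ± 0.20 SE (95% interval −1.22 to −0.34, limma adjusted *P* = 0.12). Across the alternatives its adjusted *P* ranged from 0.062 to 0.35 and its log2 fold change from −0.94 to −0.64. Its relative *Piezo2*, known mainly from sensory neurons, was 2.43–4.99 TPM in controls and 3.65–4.16 TPM in *Prdm16*SMKO (−0.04 ± 0.29 SE). The polycystin channel *Pkd2* was higher in level, at 50.8–65.7 TPM in controls and 53.4–64.1 TPM in *Prdm16*SMKO, and the groups overlapped. Endothelial markers, from cells that also carry *Piezo1*, summed to 87.3–108 TPM in controls and 59.2–135 TPM in *Prdm16*SMKO, with 0 of 5 genes called.

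Of the L-type pore genes, *Cacna1c*, the main voltage-gated route of calcium into VSMCs, was 45.0, 32.4, and 29.5 TPM in controls and 34.6, 43.3, and 27.8 TPM in *Prdm16*SMKO. The groups overlapped fully, and the 95% interval of the log2 fold change ran from −0.48 to 0.45 around −0.02 (SE 0.20). *Cacna1d*, the pore that opens at more negative voltages, was 13.7, 10.3, and 9.59 TPM in controls and 6.65, 9.32, and 7.98 TPM in *Prdm16*SMKO. All knockouts lay below all controls, the nearest by a narrow margin, with a log2 fold change of −0.48 ± 0.19 SE (limma adjusted *P* = 0.35). The retinal *Cacna1f* and skeletal muscle *Cacna1s* were at most 0.16 TPM and were not tested.

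The other pores were present at low levels. *Cacna1a*, the P/Q-type pore of nerve terminals, was 2.32–3.32 TPM in controls and 2.07–6.32 TPM in *Prdm16*SMKO, the top value coming from replicate 1 alone. The N-type *Cacna1b* and R-type *Cacna1e* did not exceed 0.37 TPM. Of the T-type pores, which open near rest, *Cacna1g* was 3.13–3.81 TPM in controls and 2.25–3.67 TPM in *Prdm16*SMKO, *Cacna1h* was 1.11–2.86 and 1.66–2.21 TPM, and *Cacna1i* did not exceed 0.01 TPM. None of these groups separated.

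The beta subunits, cytoplasmic partners that carry the pore to the membrane, differed in the sign of their values. *Cacnb2* was 21.5, 15.2, and 17.1 TPM in controls and 14.0, 14.7, and 12.8 TPM in *Prdm16*SMKO (log2 fold change −0.36 ± 0.16 SE, limma adjusted *P* = 0.40), without overlap. *Cacnb3* was 29.5, 21.9, and 23.3 TPM in controls and 29.6, 34.3, and 24.7 TPM in *Prdm16*SMKO (0.24 ± 0.17 SE, limma adjusted *P* = 0.58), with overlap. *Cacnb1* was 7.26–9.73 TPM in controls and 6.25–8.68 TPM in *Prdm16*SMKO, and *Cacnb4*, at 0.32–0.48 TPM, was not tested. As a share of the TPM of the 4 beta genes within an aorta, *Cacnb3* held 48.2–48.9% in controls and 55.9–59.1% in *Prdm16*SMKO, while *Cacnb2* held 33.8–35.6% and 25.2–29.1%. Such a share does not move when a whole aorta is rescaled.

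The alpha2delta and gamma genes were each led by 1 member. *Cacna2d1*, an extracellular subunit that raises channel density, was 49.1–57.7 TPM in controls and 41.7–50.5 TPM in *Prdm16*SMKO (log2 fold change −0.15 ± 0.13 SE), and *Cacna2d3* was 3.11–5.05 and 2.73–6.25 TPM. *Cacna2d2* and *Cacna2d4* did not exceed 0.98 TPM and were not tested. *Cacng7*, of a family that also regulates glutamate receptors, was 24.0–31.3 TPM in controls and 19.95–28.5 TPM in *Prdm16*SMKO, and *Cacng4* was 0.50–0.59 and 0.46–1.04 TPM (0.35 ± 0.49 SE). *Cacng2*, *Cacng3*, *Cacng5*, *Cacng6*, and *Cacng8* were listed at 0 in all aortas, and the skeletal muscle *Cacng1* only at 0.09 TPM in a single control.

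Among the receptor-linked TRPC channels, *Trpc1* was the main transcript, at 4.87–6.31 TPM in controls and 4.47–6.21 TPM in *Prdm16*SMKO. The groups overlapped, with a log2 fold change of −0.07 ± 0.20 SE. *Trpc4* was 0.03 TPM in each control and 0.07–0.16 TPM in *Prdm16*SMKO, *Trpc6* did not exceed 0.22 TPM and *Trpc2* 0.84 TPM, all untested, and *Trpc5* and *Trpc7* were listed at 0.

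Of the TRPV channels, *Trpv2*, a stretch-responsive channel of muscle and macrophages, was 15.4–23.8 TPM in controls and 20.2–24.3 TPM in *Prdm16*SMKO (0.29 ± 0.18 SE), and *Trpv4*, prominent in endothelium, was 1.28–2.55 and 1.12–2.17 TPM. *Trpv5* was listed at 0, and *Trpv1*, *Trpv3*, and *Trpv6* did not exceed 0.40 TPM. The TRPM family was carried by *Trpm4*, a calcium-activated channel that passes sodium and depolarizes VSMCs, and by the magnesium-permeable channel kinase *Trpm7*. *Trpm4* was 25.3–33.7 TPM in controls and 20.9–32.7 TPM in *Prdm16*SMKO, and *Trpm7* was 22.0–31.7 and 22.2–30.7 TPM, with log2 fold changes of −0.13 ± 0.19 SE and 0.03 ± 0.18 SE. *Trpm3* was 0.80–0.97 TPM in controls and 0.64–1.15 TPM in *Prdm16*SMKO, and *Trpm1*, *Trpm2*, *Trpm5*, *Trpm6*, and *Trpm8* did not exceed 0.53 TPM.

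The sensors of store calcium also differed in sign. *Stim1* was 36.2, 26.0, and 32.7 TPM in controls and 24.7, 27.2, and 23.2 TPM in *Prdm16*SMKO (log2 fold change −0.33 ± 0.15 SE, limma adjusted *P* = 0.43). *Stim2*, which responds to smaller losses of store calcium, was 9.17, 7.66, and 6.78 TPM in controls and 10.4, 11.1, and 8.97 TPM in *Prdm16*SMKO (0.37 ± 0.17 SE, limma adjusted *P* = 0.42). Each gene had 1 pair of overlapping aortas, but the ratio separated the groups: *Stim1* held 77.2–82.8% of the summed *Stim* TPM in controls and 70.4–72.1% in *Prdm16*SMKO. After rescaling by the median ratio, *Stim2* had the lowest adjusted *P* of any member, 0.052, still over the threshold. The study's own list of differentially expressed genes holds *Stim2* as higher. Of the channels they open, *Orai1* was 10.9, 10.6, and 12.0 TPM in controls and 10.6, 9.61, and 9.75 TPM in *Prdm16*SMKO, nonoverlapping by 0.02 TPM between 10.61 and 10.59 (−0.16 ± 0.14 SE). *Orai3*, the most abundant, was 22.8–24.9 and 20.6–25.4 TPM, and *Orai2* was 1.72–2.32 and 1.54–1.77 TPM.

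Release channels were led by *Itpr1*, the main IP3 receptor of the aorta and the second most abundant member. It was 195, 165, and 157 TPM in controls and 145, 146, and 119 TPM in *Prdm16*SMKO. Every knockout was below every control, by a log2 fold change of −0.33 ± 0.13 SE (95% interval −0.63 to −0.04, limma adjusted *P* = 0.33), and it held 92.9–95.8% of IP3 receptor TPM in controls and 92.1–95.4% in *Prdm16*SMKO. *Itpr2* was 6.08–10.8 TPM in controls and 5.57–8.19 TPM in *Prdm16*SMKO, and *Itpr3* was 1.89–2.38 and 1.56–2.73 TPM. *Ryr2*, the ryanodine receptor that gives VSMCs their calcium sparks, was 25.7, 19.7, and 18.1 TPM in controls and 15.5, 19.8, and 14.6 TPM in *Prdm16*SMKO, overlapping through knockout replicate 2 (−0.34 ± 0.18 SE, limma adjusted *P* = 0.47). The skeletal *Ryr1* did not exceed 0.01 TPM, and *Ryr3* was 0.06–0.30 TPM in controls and 0.04 TPM in each knockout.

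*Casq1*, the calsequestrin that binds calcium inside the store, was 86.0, 74.4, and 70.8 TPM in controls and 64.4, 68.1, and 46.6 TPM in *Prdm16*SMKO, without overlap (log2 fold change −0.38 ± 0.16 SE, limma adjusted *P* = 0.37). It is best known from skeletal muscle, whose 10 markers summed to 15.0–18.6 TPM in controls and 7.67–17.8 TPM in *Prdm16*SMKO, with 0 called. The 5 markers tested were all lower (median log2 fold change −0.58), beside 67.9% of all tested genes below 0. The part of skeletal muscle in the *Casq1* values was not tested. *Casq2*, the cardiac form, was 0.24–1.01 TPM in controls and 0.59–1.22 TPM in *Prdm16*SMKO (0.40 ± 0.58 SE). Phospholamban (*Pln*), the brake on SERCA, was 3.13–4.74 TPM in controls and 3.13–3.67 TPM in *Prdm16*SMKO, and sarcolipin (*Sln*) did not exceed 0.55 TPM and was not tested. Cardiac markers summed to 33.2–55.7 TPM in controls and 509–525 TPM in *Prdm16*SMKO through *Tnnt2* alone (16.8–33.8 and 484–503 TPM), while *Myl3* was listed at 0 and *Myh6* was 1.76–8.68 and 2.17–3.77 TPM.

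SERCA was the most abundant transcript of the whole group. *Atp2a2*, the pump that refills the sarcoplasmic reticulum, was 345, 303, and 309 TPM in controls and 326, 381, and 269 TPM in *Prdm16*SMKO, above 98.3% of tested genes in level. The knockouts spanned the controls on both sides, and the log2 fold change of 0.02 ± 0.14 SE had a 95% interval from −0.30 to 0.33. *Atp2a3* was 32.9–41.7 TPM in controls and 29.7–39.3 TPM in *Prdm16*SMKO, and the fast-muscle *Atp2a1* did not exceed 0.33 TPM. *Atp2a2* held 89.2–90.2% of SERCA TPM in controls and 89.1–90.8% in *Prdm16*SMKO.

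Of the genes that remove calcium from the cytosol, *Atp2b4*, the main plasma membrane pump here, was 113–135 TPM in controls and 96.4–129 TPM in *Prdm16*SMKO, and *Atp2b1* was 20.8–25.2 and 24.3–26.0 TPM. *Atp2b2* was 0.34–0.70 TPM in controls and 0.57–1.75 TPM in *Prdm16*SMKO (0.74 ± 0.54 SE), and *Atp2b3* did not exceed 0.03 TPM. *Atp2c1*, which loads the Golgi with calcium and manganese, was 23.9, 24.0, and 22.0 TPM in controls and 26.0, 27.8, and 26.7 TPM in *Prdm16*SMKO. All knockouts exceeded all controls by a small amount (0.20 ± 0.12 SE, 95% interval −0.06 to 0.47, limma adjusted *P* = 0.51), and *Atp2c2* did not exceed 0.03 TPM. The exchanger *Slc8a1* was 29.4–37.3 TPM in controls and 30.7–32.8 TPM in *Prdm16*SMKO (−0.03 ± 0.13 SE).

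**Figure D3:**
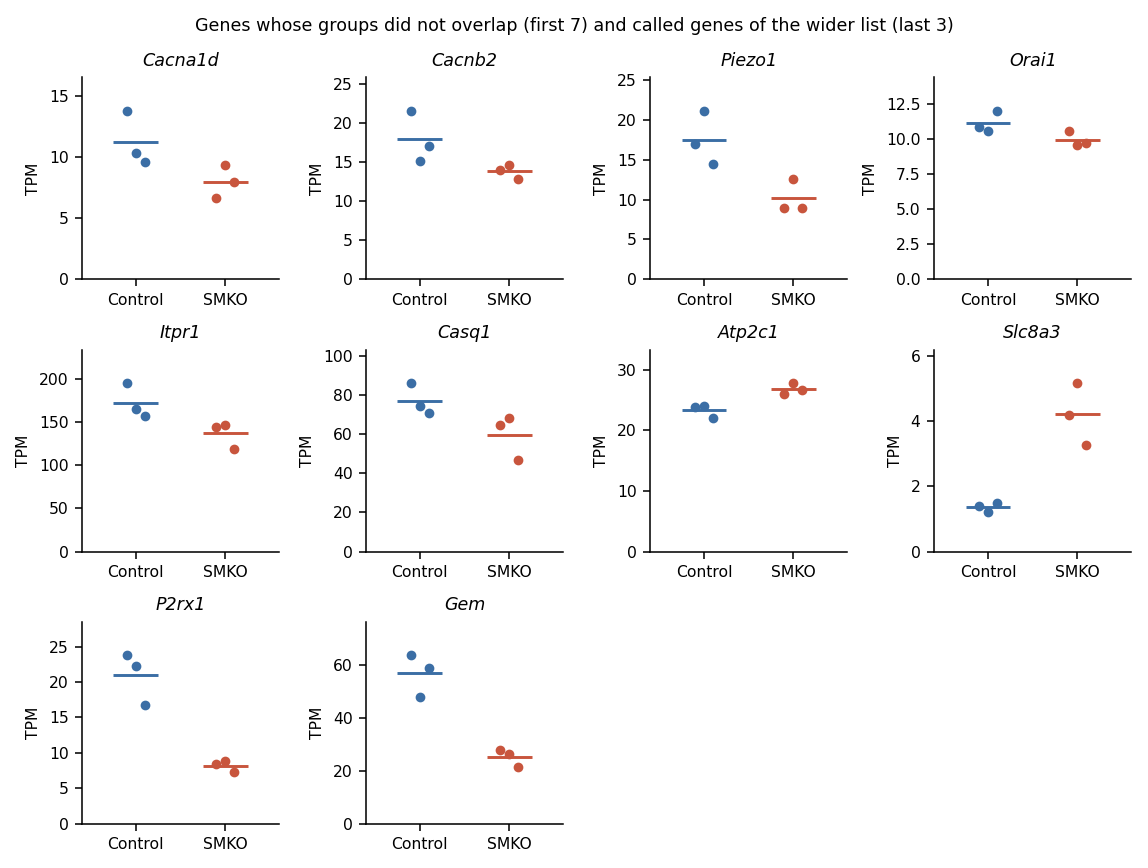
TPM (y axis from 0) of 7 calcium genes whose groups did not overlap and of the 3 called genes of the wider calcium list (*Slc8a3*, *P2rx1*, and *Gem*), with points for single aortas and bars for group means. *Orai1* separates by 0.02 TPM, whereas *P2rx1* fell from 16.7–23.8 to 7.23–8.78 TPM.

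Shares within families do not depend on how an aorta is scaled, and for 16 families with 2 or more tested genes the share of the leading gene was compared by a two-sided exact permutation test. The groups did not overlap for 5 of the 16, a count that was not set beside families of other genes. These were *Cacnb3* among beta subunits (a difference of 9.41 percentage points), *Cacna1c* among L-type pores (75.5–76.6% in controls and 77.7–83.9% in *Prdm16*SMKO), *Stim1* (fell by 8.79 points), *Trpc1* among TRPC channels (89.2–91.2% and 71.0–86.5%), and *Trpm4* among TRPM channels (50.8–52.6% and 47.1–50.6%). *Trpc1* itself had a log2 fold change of −0.07 ± 0.19 SE. Its share moved through members of low level, *Trpc2* (at most 0.84 TPM) and *Trpc4* (at most 0.16 TPM) among them. The 71.0% was *Prdm16*SMKO replicate 1 alone, beside 86.5% and 85.6% in replicates 2 and 3. With 3 against 3 aortas the smallest *P* this exact test can give is 0.1, which any full separation gives and each of the 5 families reached. No family could therefore pass 0.05, and the adjusted *P* over the 16 families was 0.32 for these 5. The count is a description without a background share.

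**Figure D4:**
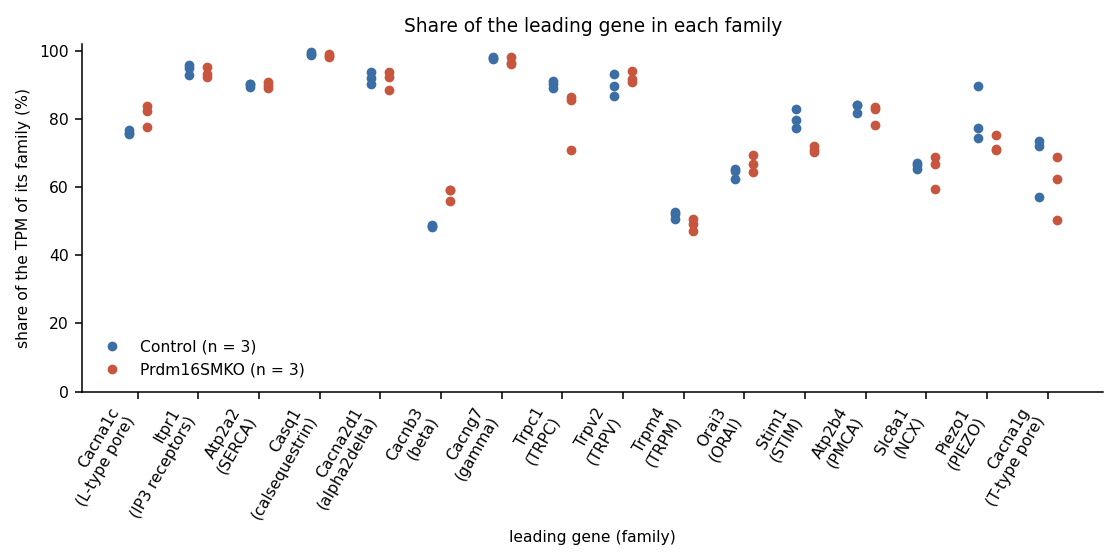
Share of the summed TPM of its family (y axis, percent) held by the leading gene of 16 families in each control (blue) and *Prdm16*SMKO (red) aorta. *Cacnb3* is tight in controls at 48.2–48.9% and lies at 55.9–59.1% in *Prdm16*SMKO, while *Atp2a2* stays near 90% in both groups.

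Around these genes, a list of 85 further calcium genes was examined, covering calmodulin signaling, store proteins, mitochondrial uptake, purinergic channels, other exchangers, and regulators of calcium channels. Of the 68 tested, 1 was called higher and 2 lower, 3 of 68, beside 1.07% of all tested genes. Of these genes, the study's own list of differentially expressed genes with a promoter peak holds *Slc8a3* and *Ano1* as higher and *Plcb4* as lower. *P2rx1*, the ATP-gated channel that carries purinergic calcium entry in arteries, was 23.8, 22.3, and 16.7 TPM in controls and 8.45, 8.78, and 7.23 TPM in *Prdm16*SMKO, a log2 fold change of −1.34 ± 0.17 SE (limma adjusted *P* = 0.0091). *Gem*, a small GTPase that binds beta subunits and inhibits voltage-gated calcium channels, was 63.8, 48.1, and 58.9 TPM in controls and 27.7, 26.2, and 21.3 TPM in *Prdm16*SMKO (−1.18 ± 0.15 SE, limma adjusted *P* = 0.0095). In both genes every knockout was far below every control. *Slc8a3*, the sodium-calcium exchanger paralog of *Slc8a1*, was 1.39, 1.22, and 1.48 TPM in controls and 4.18, 5.16, and 3.28 TPM in *Prdm16*SMKO (1.54 ± 0.25 SE, limma adjusted *P* = 0.027), with a share of exchanger TPM of 2.43–3.35% in controls and 7.36–9.87% in *Prdm16*SMKO. *Slc8a3* lost its call without any of 5 of the 6 aortas in turn, keeping it only without *Prdm16*SMKO replicate 3 (adjusted *P* 0.074–0.11 in the other 5), whereas *P2rx1* and *Gem* kept theirs.

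In the wider list 53 of 68 genes had log2 fold changes below 0, with a median of −0.16 beside −0.12 for all tested genes. At an unadjusted *P* under 0.05, 2 of 68 were higher and 15 lower, beside 3.22% and 9.45% of all tested genes. Groups did not overlap for 2 that were higher and 21 that were lower, beside 4.08% and 14.9%. Among the most abundant were *Calm2* (682 TPM in controls and 648 TPM in *Prdm16*SMKO on average), *Ppp1r12a* (498 and 509 TPM), *Mylk*, the myosin light chain kinase (523 and 478 TPM), and *Calr*, the luminal calcium buffer calreticulin (487 and 353 TPM, −0.47 ± 0.11 SE, limma adjusted *P* = 0.11). *Srl*, which encodes the store protein sarcalumenin, was 32.5, 32.8, and 23.9 TPM in controls and 19.0, 10.6, and 10.3 TPM in *Prdm16*SMKO (−1.20 ± 0.25 SE, limma adjusted *P* = 0.064) and was singled out after its values were seen.

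In the fibroblast ChIP-Seq, 29 of the 75 genes (38.7%) had a peak of the PRDM16 Flag library centered within 2 kb of an annotated TSS, beside 26.0% of 26180 RefSeq genes, and 0 had a peak of the vector library, which held 67 peaks in all. Among the 41 genes tested in the aorta 27 had such a peak (65.9%), beside 43.3% of the 13157 tested genes with a RefSeq TSS, and among the 34 untested genes only *Cacnb4* and *Trpc6* did (5.88%, beside 7.54% of the 12067 untested genes with a RefSeq TSS). For members with a mean of at least 10 TPM the share was 68.2% (15 of 22), beside 49.4% of the 7022 tested genes at that level with a RefSeq TSS. The share was larger among genes tested in the aorta than among untested genes, in the members as in the whole table. With 1 library per condition these shares are descriptions without a test.

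The 29 genes carried 36 promoter peaks, with 1 peak in 23 genes, 2 in 5, and 3 in *Cacnb3*. Their median fold enrichment over the local background was 5.65 (range 3.03–17.2), beside 5.27 for all 11271 peaks, and their median width was 608.5 bp, beside 394 bp. All peaks include those away from promoters, and these medians were not set beside promoter peaks of all genes. The peaks were centered downstream of the TSS in 30 of 36 cases (27 within 500 bp), and 13 covered the TSS. By comparison, 72.1% of promoter peaks of all genes were centered downstream.

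**Figure D5:**
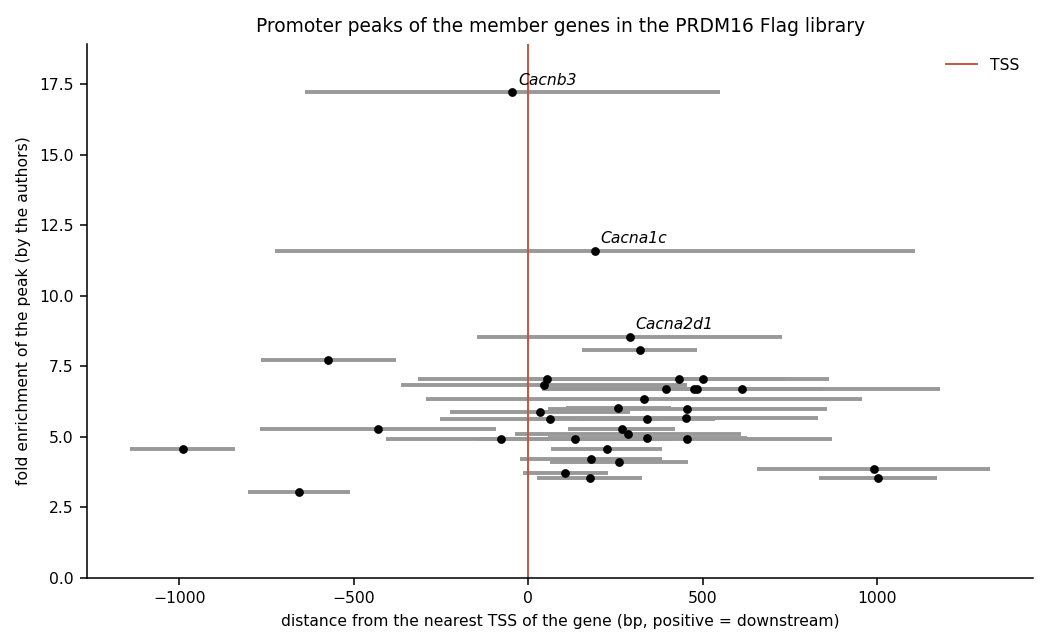
Extent (gray bars) and center (points) of the 36 promoter peaks of the calcium genes by distance from the TSS (x axis, bp, positive downstream) and fold enrichment by the authors (y axis). Most lie within 500 bp downstream at 3- to 9-fold, with *Cacnb3* at 17.2 and *Cacna1c* at 11.6 above them.

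The strongest peak stood at *Cacnb3*, chr15:98634128-98635315, covering an internal TSS of the gene, with a fold enrichment of 17.2, above 99.8% of all peaks. *Cacna1c* followed with a peak of 1835 bp at chr6:119107388-119109222 and a fold enrichment of 11.6, above 98.5% of all peaks. *Cacna2d1* (8.54-fold), *Cacna1a* (8.09), and *Atp2b1* (7.73) came next among promoter peaks by the RefSeq TSSs used. A 9.68-fold peak in *Atp2b4*, given below, is not counted among these. *Atp2a2* and *Itpr3* had fold enrichments of 7.03, and *Cacnb2* of 6.82. *Piezo1* had a peak of 1251 bp across its TSS (chr8:122550373-122551623, 6.33-fold), *Itpr1* one just downstream (chr6:108213209-108213517, 5.27-fold), and *Atp2c1* another (chr9:105494507-105495077, 4.96-fold).

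Promoter peaks were also present at *Cacna1g*, *Cacna1h*, *Cacna2d3*, *Cacng7*, *Itpr2*, *Orai1*, *Orai2*, *Piezo2*, *Pkd2*, *Stim1*, *Stim2*, *Trpc1*, *Trpm3*, *Trpm7*, *Trpv2*, and *Trpv4*, with the highest peak of each between 3.53- and 6.68-fold. Abundant members without one were *Atp2b4*, *Casq1*, *Atp2a3*, *Slc8a1*, *Trpm4*, *Orai3*, and *Ryr2*. For *Atp2b4* this depends on the TSSs used, as given below. *Cacna1d* had none either, and of the called genes of the wider list *Slc8a3* had one (3.28-fold) and *P2rx1* and *Gem* did not, beside 39.6% of the 149 called genes with a RefSeq TSS. Away from the TSSs of curated RefSeq transcripts, 23 peaks lay inside 15 of the genes, 2 in exons of those transcripts and 21 outside them. The highest, in *Atp2b4* (chr1:133800600-133800959, 9.68-fold), lay near the 5′ end of the gene in GENCODE (133801041), 47.0 kb upstream of its curated TSS. A *Cacna1a* peak (chr8:84388526-84388787, 4.92-fold) also lay near a GENCODE gene start (84388440). Peaks in *Cacna1c* and *Cacng8* lay at the promoters of *Dcp1b* and *Gm23450*. No peak in promoter or body was found for 39 of the 75 genes.

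The fold changes of members with and without a promoter peak were similar at the median. Median log2 fold changes were −0.06 for the 27 tested members with a promoter peak and −0.04 for the 14 without, beside −0.11 and −0.12 for all tested genes with a RefSeq TSS, with and without one. Members whose groups did not overlap were 5 of 27 with a peak (*Piezo1*, *Itpr1*, *Cacnb2*, *Orai1*, and *Atp2c1*) and 3 of 14 without (*Cacna1d* and *Casq1* among them). Both are near the 19.0% of all tested genes, a share that was not split by peak. The peaks and the expression values come from different cell types.

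RefSeq promoter windows of 300 bases (GRCm38, from 250 bases before the TSS) were found for 60 of the 75 genes, 77 windows in all. Windows of members with a peak had a median GC content of 68.8% and 26.5 CpG, windows of members without one 55.7% and 8 CpG, and all promoters 52.7% and 7 CpG, while those of all genes with a promoter peak had 63.7% and 23 CpG. Windows were classed by gene, so some at alternative TSSs hold no peak themselves. The letters AGATAA, the core bound by GATA factors, searched on both strands, occurred in 0 of 34 windows of members with a peak and in 5 of 43 of members without one (11.6%). Of the promoters of all genes, they occurred in 5.39% for genes with a peak, 12.7% for genes without, and 11.2% overall. CACGTG (an E-box) occurred in 4 of 34 windows of members with a peak (11.8%) and in 2 of 43 of members without one (4.65%). For all genes the shares were 9.19%, 6.61%, and 7.15% in the same order. A CArG box occurred in 2 of 77 windows of members (2.60%), beside 1.63% of all promoters. These matches are descriptions of short windows and are not sites.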

How the data were processed

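Samples were grouped by their titles, with the knockout and wild-type columns of the table matched to *Prdm16*SMKO and control replicates of the same number. For RNA-Seq the authors deposited TPM, 1 column per aorta, from poly(A)-selected libraries. The submitters' processing notes name cutadapt 2.3, STAR 2.7.8a, and RSEM 1.3.3 without giving each a role. TPM are not counts, so depth is unknown, no counting interval is given, and reads of overlapping genes cannot be separated here because the strand setting is not given in the sources used here. For ChIP-Seq the authors used Bowtie2 (GRCm38) and MACS2, with *q* set to 0.01 and the genome size set to that of human, and the MACS2 control is not given in the sources used here. Each deposited peak has a fold enrichment as a ratio to local background, its *p* and *q* as −log10 values, and an integer score, which was not used. Libraries made with IgG are not analysed here.

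The aortas were compared by limma (version 3.58.1, R version 4.3.3) after log2 transformation with a pseudocount of 0.1, using lmFit and trended eBayes, for the 15668 genes whose mean was 0.5 TPM or more, with Benjamini-Hochberg adjustment over all of them and a threshold of 0.05. Fold changes on this scale understate those of low genes. Nothing states that the aortas came from separate litters or days, and *P* values measure the spread between these mice. Peaks were assigned by their center to TSSs of curated RefSeq transcripts within 2 kb. Family shares were compared with SciPy 1.17.1. On simulated data with the same number of genes and aortas, the fit recovered 51 of 100 genes changed 2-fold. It recovered 78 of 100 changed 4-fold, with 11 false calls. Values were given for members whose groups did not overlap, the 2 most abundant of each role, the 5 largest rises and falls, members with a promoter peak or listed at 0, and called or the 5 most abundant genes of the wider list, except 2 genes that are counted but not reported here. The members and lists were chosen with earlier results of these data known. The alternatives tried were other pseudocounts, filters, scalings, no variance trend, a replicate block, leaving out each aorta, and other peak windows and thresholds.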

Additional observations from a re-analysis of the deposited data

How the results depend on the processing

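No calcium gene of the 75 was called by limma in any of the 15 settings, with the lowest adjusted *P* between 0.052 (rescaled by the median ratio) and 0.35, and with 2 to 9 members at an unadjusted *P* under 0.05. This covers limma on TPM only, since *Stim2* is on the study's own list of differentially expressed genes. All tested genes called were 168, against 110 without a filter, 413 after rescaling by the median ratio, 392 after quantile normalization, 48 without a variance trend, and 91–141 when single aortas were left out. Of the wider list, 3 were called, against 6 after median-ratio rescaling, 5 after quantile normalization, and 0 without a trend, where *P2rx1* (0.063), *Gem* (0.078), and *Slc8a3* (0.060) lost their calls, and *Slc8a3* also lost it without the filter (0.081). *Cacna1c* changed sign to 0.11 by median ratio and 0.13 by quantile normalization, and ranged from −0.18 to 0.16 with single aortas left out. In those fits *Atp2a2* ranged from −0.11 to 0.14 and *Casq2* from −0.12 to 0.74. *Prdm16* passed the threshold by median ratio (0.024), by quantile normalization (0.033), and without *Prdm16*SMKO replicate 2 (0.040). Members with a promoter peak numbered 9, not 29, when the window ran from 1 kb upstream to 100 bp downstream, since most peaks are centered farther downstream, 27 at *q* of at most 0.001, and 29 in the other windows.

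No pairing by replicate number was seen: deviations of same-numbered aortas had correlations of −0.0246, −0.07, and −0.00896. With the replicate block, 184 genes, 0 members, and 4 genes of the wider list (*Srl* in addition) were called. Depth is unknown, and *Cacng4*, *Casq2*, and *Atp2b2*, near the 0.5 TPM filter, have intervals too wide to show a 2-fold difference.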

Other observations

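In the wider calcium list, groups did not overlap for 2 higher and 21 lower of 68 tested genes, beside 4.08% and 14.9% of all tested genes, and 5 of the genes that were not called are given here. *Stac*, an adaptor that binds L-type channels, was 9.42 TPM on average in controls and 5.37 TPM in *Prdm16*SMKO (log2 fold change −0.79 ± 0.19 SE, limma adjusted *P* = 0.10), and the GTPase *Rrad* was 217 and 174 TPM (−0.31 ± 0.14 SE). *Rem1*, of the same GTPase family as *Gem* and *Rrad*, was 2.92 TPM in controls and 5.01 TPM in *Prdm16*SMKO (0.78 ± 0.22 SE, limma adjusted *P* = 0.17), without overlap. The calcium/calmodulin kinases *Camk2g* (90.02 and 60.5 TPM, −0.57 ± 0.15 SE) and *Camk2b* (16.6 and 11.0 TPM, −0.59 ± 0.15 SE) were lower without overlap, at limma adjusted *P* values of 0.13 and 0.12. *Stac* and *Camk2b* were called after rescaling by the median ratio and after quantile normalization, and *Camk2g* after the former. These genes were singled out after their values were seen.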
